A study of Glycine max with 4 samples.

Results

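Droughted leaves of PI 567690 were compared with droughted leaves of Pana, 2 soybean (Glycine max) lines that the labels call drought tolerant and drought susceptible. All gene models with at least 1 FPKM in 3 or more of the 6 drought libraries were tested, which were 30178 of the 54175 gene models measured. FPKM gives the sequenced fragments of a gene model relative to its length and to all mapped fragments of the library. The tested libraries were 3 of PI 567690 and 3 of Pana. They came from leaves at the R2 stage of flowering after 15 days of water stress that began at the vegetative V5 stage, in pots of soil and sand. The study also held 3 control libraries of PI 567690 and 3 of Pana, which were used for the estimate of the spread and to ask which line differences are present without drought. The series' design text calls the libraries of a group biological replicates. No label says which plants they came from, so p-values measure only the spread between these libraries, which may be technical.

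Wilting of the canopy sets in when leaves lose more water than the roots supply. Plants under water deficit close their stomata under the hormone abscisic acid, lower photosynthesis and growth, and make protective proteins and solutes, and lines that wilt slowly are used in soybean breeding as a source of drought tolerance. A comparison of inbred lines at 1 time point mixes differences that are always present between the genotypes, such as a gene that one line lacks or does not transcribe, with differences in how far each line's leaves had responded. The gene models appear by their identifiers: 0 of the 59048 genes of the RefSeq name table carried any of them, so no gene name or function is given. For the same reason no list of pathway genes could be applied, and the leaf label could not be checked with marker genes. Identifiers of this form give the chromosome and the order along it.

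The drought libraries did not separate by line. On log2(FPKM + 1), the median absolute difference of a gene was 0.27 between PI 567690 library 2 and Pana library 2, against 0.39 between Pana libraries 1 and 2 and 0.70 between Pana libraries 1 and 3. PI 567690 libraries 2 and 3 were nearly alike, with a median difference of 0.07 and a correlation across genes of 0.992, while PI 567690 library 1 correlated best with Pana library 2 (0.931). Pana library 1 correlated best with PI 567690 library 1 (0.909), and Pana library 3 with PI 567690 control library 1 (0.943). The median SD of a gene over the 3 libraries was 0.22 in PI 567690 and 0.43 in Pana. Relative sequencing depth, read from the commonest ratio of low values, was 48.3% to 78.3% of that of Pana library 3 in the PI 567690 drought libraries and 77.7% to 100% in the Pana drought libraries. Among the controls, Pana library 1 stood apart, with 24623 gene models at 1 FPKM or more against 27035 to 29819 in the other control libraries.

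Line identity was checked in each drought library with the genes that part the other 11 libraries by line at least 2-fold. These genes were at the level of PI 567690 (over 0.75 of the way from the mean of Pana to that of PI 567690) for 44 of 44 genes in PI 567690 library 2, 42 of 45 in library 3 and 40 of 60 in library 1. PI 567690 libraries 2 and 3 are nearly alike, and each helped to choose the genes read in the other. Their high shares were thus largely set in advance and are a weak check of their label. In Pana library 2, 43 of 48 such genes were at the level of Pana (under 0.25 of the way) and 0 at that of PI 567690. Pana library 1 had 38 of 81 genes at the level of Pana and 29 of 81 (35.8%) at that of PI 567690. Pana library 3 had 41 of 59 genes at the level of Pana and 9 of 59 (15.3%) at that of PI 567690. The libraries labelled Pana drought 1 and 3 thus went in part against their line label, and PI 567690 library 1 had 8 of 60 genes (13.3%) at the level of Pana. The main counts below, and the calls of named gene models that these libraries decide, are given with and without Pana libraries 1 and 3. Main counts are also given without PI 567690 library 1, whose share against its label was close to that of Pana library 3.

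**Figure D1:**
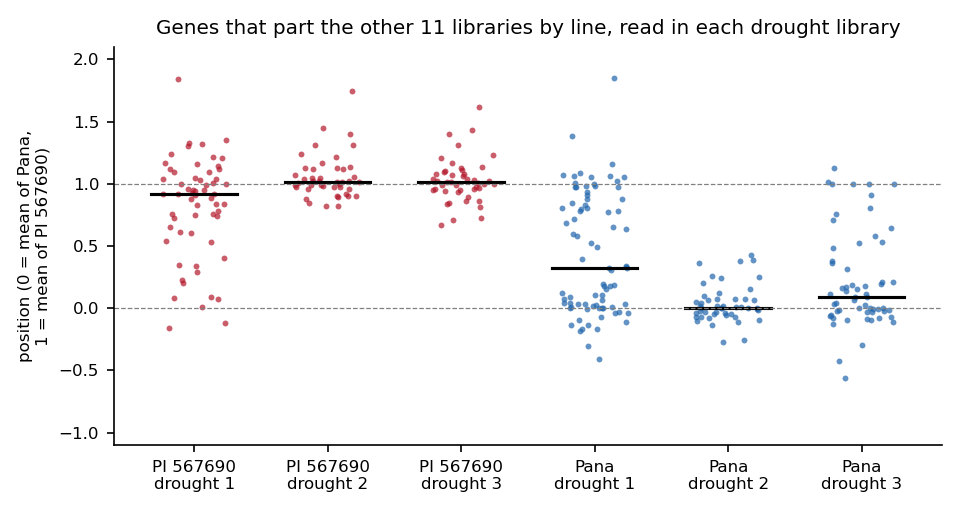
Position of each gene (points) between the mean level of Pana (0) and of PI 567690 (1) on log2(FPKM + 1), for genes that part the other 11 libraries by line at least 2-fold, in each drought library; bars are medians. PI 567690 libraries 2 and 3 lie near 1 and Pana library 2 near 0, while Pana library 1 has 29 of 81 genes above 0.75. PI 567690 libraries 2 and 3 are nearly alike, and each helped to choose the genes shown for the other.

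A second check used genes chosen on the control libraries alone, at least 8-fold apart between the lines in every control library. On the 128 genes higher in PI 567690 controls, the PI 567690 drought libraries had median positions of 0, 0.26 and 0.28, nearer to the Pana controls than to the PI 567690 controls. Pana drought libraries 1 and 2 were at 0 and 0.08 and Pana drought library 3 at 0.64. Pana library 3 was therefore nearer to the PI 567690 controls on these genes than any droughted PI 567690 library was. The 31 genes lower in PI 567690 controls put the PI 567690 drought libraries at 0.61, 0.81 and 0.81 and the Pana drought libraries at 0.71, 0.16 and 0.56. These genes were chosen in well-watered leaves and read in droughted ones, so line and treatment cannot be told apart in this check.

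Droughted PI 567690 and droughted Pana differed in 130 of the 30178 gene models (0.431%; limma on log2(FPKM + 1), Benjamini-Hochberg adjusted p under 0.05). Of these, 98 (0.325%) were higher in PI 567690 and 32 (0.106%) were lower. An unadjusted p under 0.05 was reached by 2040 gene models, 1575 higher and 465 lower. The higher ones had a median log2 difference of 1.92 (range 0.95 to 4.20), with median levels of 5.45 FPKM in PI 567690 and 0.48 FPKM in Pana. The lower ones had a median of -2.11, with sizes of 0.98 to 3.89 and median levels of 0.49 FPKM in PI 567690 and 8.07 FPKM in Pana. In bulk leaf RNA, fewer cells of a type and less RNA per cell cannot be told apart. In all 130 the 3 libraries of one line lay above the 3 of the other, as they did in 4308 of all tested gene models (14.3%). The median over all tested gene models was 0.08, and 90% of them lay between -0.55 and 0.77.

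Low gene models were more frequent among the calls than among those tested, which is a description. The filter of 1 FPKM in 3 libraries admits gene models through the line where they are high alone. Their mean over the 6 drought libraries is then low by construction. The 1 added to each FPKM also narrows the spread of low values. Those with a mean under 5 FPKM over the 6 drought libraries made up 64.6% of the calls and 38.7% of the gene models tested. Their share of the calls was 59.9% without Pana library 1, 53.9% without Pana library 3 and 46.0% without both, with 38.3% to 39.7% of the gene models tested. At 50 FPKM or more, 4 of 2176 were called, 3 higher and 1 lower, while under 2 FPKM 34 of 4112 were called, 27 higher and 7 lower. The median SE of the log2 difference was 0.28 under 2 FPKM and 0.41 at 50 FPKM or more. Size alone did not decide a call: of 152 gene models at least 4-fold higher in PI 567690 (log2 difference of 2 or more) 46 passed, and of 51 at least 4-fold lower 17 passed.

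**Figure D2:**
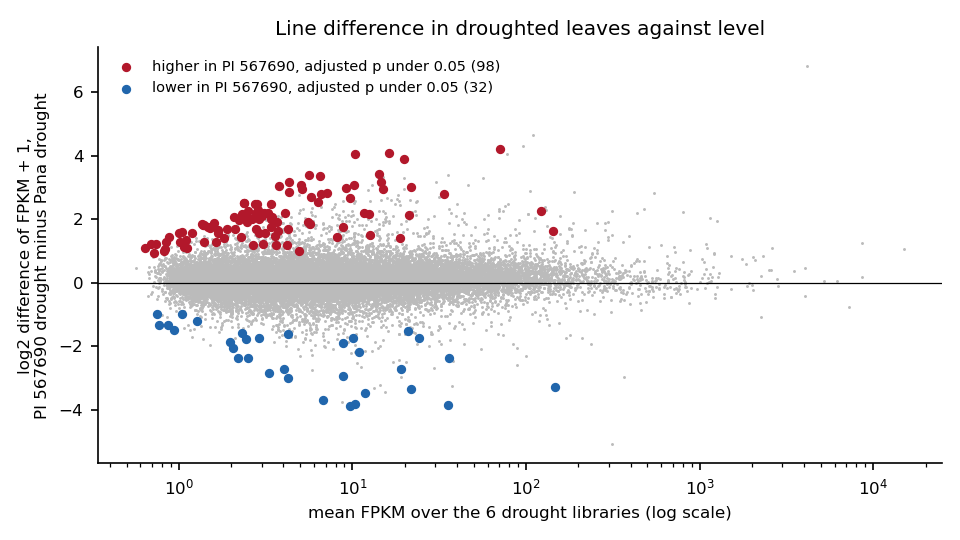
Log2 difference of FPKM + 1 (PI 567690 drought minus Pana drought) against the mean FPKM over the 6 drought libraries, 1 point per gene model tested. Red and blue points are the 98 higher and 32 lower gene models past the threshold; many gene models with differences as large, in grey, did not pass.

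The number of calls moved with single libraries, and more calls were higher than lower in each of the settings that follow. Among all tested gene models, called or not, 60.8% had a positive drought difference with all libraries, so an excess of higher ones is not particular to the calls. Without Pana library 1 it was 167 (133 higher, 34 lower), without Pana library 3 it was 169 (98 and 71) and without both 124 (81 and 43). Of the 130, 95 passed in the same direction without Pana library 1, 103 without library 3 and 57 without both. Without PI 567690 library 1 the count was 125 (102 higher, 23 lower). Leaving out PI 567690 library 2 or 3, which are nearly alike, gave 60 and 69, averaging them gave 68, and without Pana control library 1 the count was 203. With the 6 drought libraries fitted alone it was 44 (33 higher, 11 lower).

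Among called gene models with a mean above the median level of 7.02 FPKM, the 2 highest and 2 lowest differences in PI 567690 are described first. Glyma15g06780, on chromosome 15, had 150.2, 128 and 123 FPKM in PI 567690 libraries 1, 2 and 3 and 8.32, 10.8 and 2.56 FPKM in the Pana libraries. All PI 567690 libraries lay over 10 times above any Pana library (log2 difference 4.20 ± 0.60 SE, adjusted p = 0.00908). In controls it had 1.99, 0.485 and 1.399 FPKM in PI 567690 and 5.80, 2.84 and 22.0 FPKM in Pana, a difference of the other sign that did not pass (-1.94 ± 0.60 SE, adjusted p = 0.0635). The line difference itself differed between drought and control (6.13 ± 0.85 SE, adjusted p = 0.00837). Its drought call was lost without PI 567690 library 2 (log2 difference 4.23, adjusted p = 0.0528) and without Pana libraries 1 and 3 (3.50, adjusted p = 0.175).

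Glyma11g21756, on chromosome 11, had 11.8, 41.6 and 41.9 FPKM in PI 567690 and 0.284, 0.640 and 1.24 FPKM in Pana (log2 difference 4.09 ± 0.41 SE, adjusted p = 0.00067). PI 567690 library 1 was the lowest of its line and still stood well above every Pana library. Control leaves showed the line difference too, with 16.3, 17.5 and 15.5 FPKM in PI 567690 and 0.492, 0.759 and 0.295 FPKM in Pana (3.53 ± 0.41 SE, adjusted p = 0.000773). The 2 differences were not distinguishable (0.56 ± 0.58 SE, adjusted p = 0.654). With the 6 drought libraries alone the log2 difference was 4.09 and its adjusted p 0.0828.

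Glyma18g20990, on chromosome 18, was nearly silent in PI 567690, with 0.113, 0.0814 and 0.140 FPKM under drought, while the Pana libraries had 38.2, 8.44 and 11.2 FPKM (log2 difference -3.89 ± 0.51 SE, adjusted p = 0.00495). Its control levels were of the same order, 0.0953, 0.221 and 0.0900 FPKM in PI 567690 and 33.2, 12.6 and 9.33 FPKM in Pana (adjusted p = 0.00138). On chromosome 11, Glyma11g01160 had 5.29, 3.17 and 2.78 FPKM in droughted PI 567690 and 53.2, 60.5 and 87.7 FPKM in droughted Pana (-3.85 ± 0.49 SE, adjusted p = 0.00371). In controls its levels were 2.96, 2.76 and 3.70 FPKM in PI 567690 and 13.9, 44.0 and 78.1 FPKM in Pana (adjusted p = 0.00263). Without Pana libraries 1 and 3 both calls were lost, with a log2 difference of -3.09 in Glyma18g20990 (adjusted p = 0.0517) and of -3.73 in Glyma11g01160 (adjusted p = 0.0913). The call of Glyma18g20990 was also lost with the 6 drought libraries alone (-3.89, adjusted p = 0.0902).

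**Figure D3:**
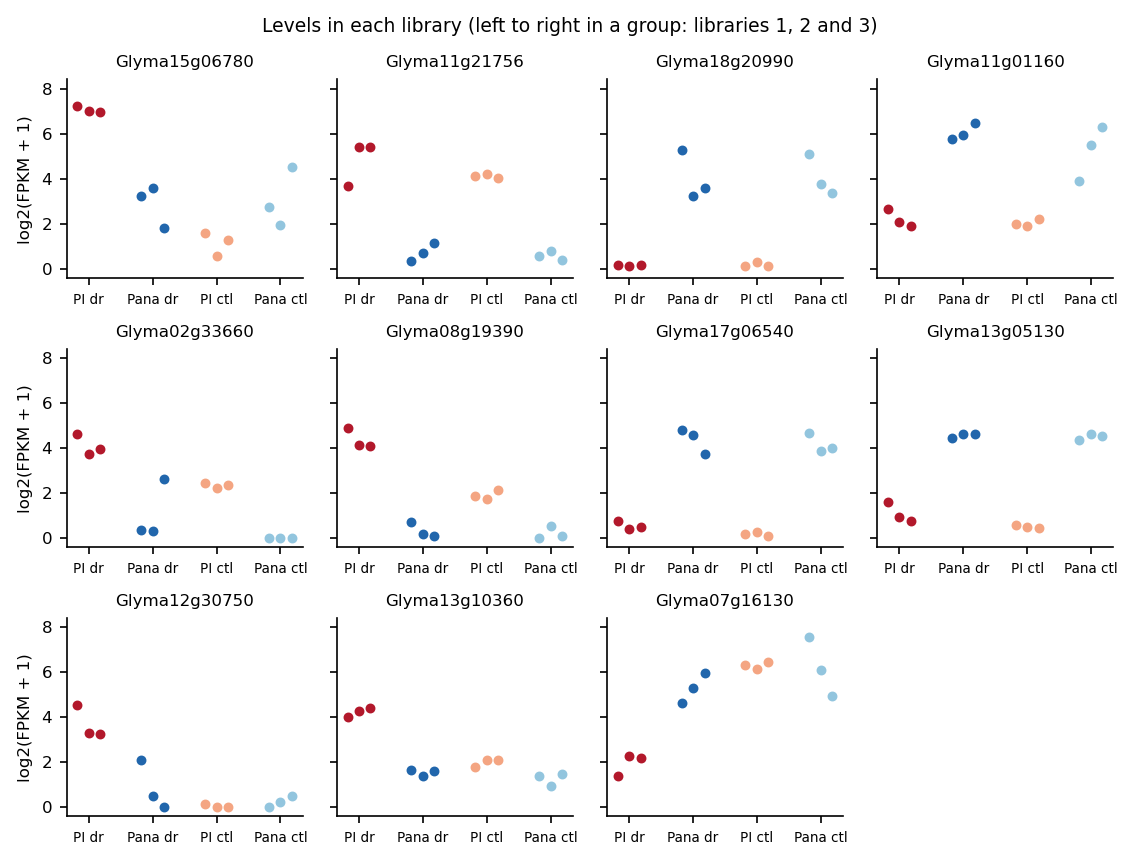
Levels on log2(FPKM + 1) in every library of the gene models named by their differences; dr is drought, ctl is control, PI is PI 567690, and the 3 points of a group are libraries 1, 2 and 3 from left to right. Glyma13g05130 and Glyma17g06540 are low in all 6 PI 567690 libraries and high in all 6 Pana libraries. Glyma12g30750 parts the lines under drought and is low in every control library. Glyma13g10360 parts the lines under drought and, by less, in controls. There every PI 567690 control library lies above every Pana control library, but the difference did not pass (limma, adjusted p = 0.0543).

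The next comparison asked which of these line differences were present in well-watered leaves, in 6 libraries that the drought contrast does not use. Of the 130 gene models, 74 (56.9%) also differed in the same direction between the control libraries, 51 of them higher and 23 lower in PI 567690. The background is high, since 3247 of the tested gene models (10.8%) passed in controls, 2507 higher (8.31%) and 740 lower (2.45%). That control count ran from 1250 without PI 567690 control library 2 to 5595 without Pana control library 3 and was 2793 without Pana control library 1. After the libraries were scaled to an equal median ratio, which moved the median control difference of all gene models to -0.02 where it was 0.18, it was 3315, with 1915 higher and 1400 lower. The 2 contrasts share no library, but each gene model has 1 estimate of spread in the fit, so a gene model with little spread passes more easily in both. With drought and control libraries fitted separately 34 passed in both, 25 higher and 9 lower. Without Pana drought library 1 the overlap was 106, without library 3 it was 99 and without both 96. Without PI 567690 drought library 1 it was 72, and without PI 567690 drought library 2 it was 45. By sign alone, 80 of the 98 higher ones (81.6%) had a positive difference in controls, against 62.2% of all gene models tested. Of the 32 lower ones, 25 (78.1%) had a negative one, which was the less frequent sign among all gene models tested.

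The 74 gene models that passed in both treatments were chosen by both differences, so their sizes are a description. The 51 higher ones had medians of 2.02 under drought and 1.68 in controls, and the 23 lower ones had medians of -2.38 and -2.70. Without both doubted Pana libraries the medians of those called in both were 2.26 and 1.96 for the higher ones and -2.90 and -2.70 for the lower ones. Glyma11g21756, Glyma18g20990 and Glyma11g01160, described above, belong to the 74. Next among the lower ones, by the smaller of the 2 differences, Glyma17g06540 on chromosome 17 had 0.678, 0.308 and 0.397 FPKM in droughted PI 567690 and 26.4, 22.6 and 12.1 FPKM in droughted Pana (log2 difference -3.81 ± 0.30 SE, adjusted p = 0.000142). Its controls had 0.138, 0.191 and 0.0566 FPKM in PI 567690 and 23.8, 13.6 and 14.7 FPKM in Pana. Every Pana library thus stood over 10 times above every PI 567690 library.

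Glyma13g05130, on chromosome 13, was steadier still: it had 1.97, 0.882 and 0.669 FPKM in droughted PI 567690 and 20.2, 23.8 and 23.1 FPKM in droughted Pana (-3.47 ± 0.23 SE, adjusted p = 5.95e-05). In controls it had 0.473, 0.406 and 0.351 FPKM in PI 567690 and 19.3, 23.6 and 21.6 FPKM in Pana. The 6 Pana libraries span a narrow range, Pana libraries 1 and 3 included. Both Glyma13g05130 and Glyma17g06540 passed in all 21 alternatives run for them.

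In the other direction, Glyma08g19390 on chromosome 8 had 28.7, 16.5 and 16.1 FPKM in droughted PI 567690 and 0.620, 0.116 and 0.0603 FPKM in droughted Pana (log2 difference 4.06 ± 0.27 SE, adjusted p = 5.95e-05), and it too passed in all 21 alternatives. Its controls had 2.58, 2.33 and 3.31 FPKM in PI 567690 and 0, 0.460 and 0.0716 FPKM in Pana (1.68 ± 0.27 SE, adjusted p = 0.00365). The line difference was larger under drought than in controls (by 2.38 ± 0.39 SE, adjusted p = 0.0126). Glyma02g33660, on chromosome 2, had 23.1, 12.2 and 14.2 FPKM in droughted PI 567690 and 0.270, 0.243 and 5.10 FPKM in droughted Pana, where library 3 stood apart (2.99 ± 0.50 SE, adjusted p = 0.025). It had 4.41, 3.70 and 4.02 FPKM in PI 567690 controls and was listed at 0 in the 3 Pana controls. Its drought call was lost in 16 of 21 alternatives, with adjusted p up to 0.344.

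**Figure D4:**
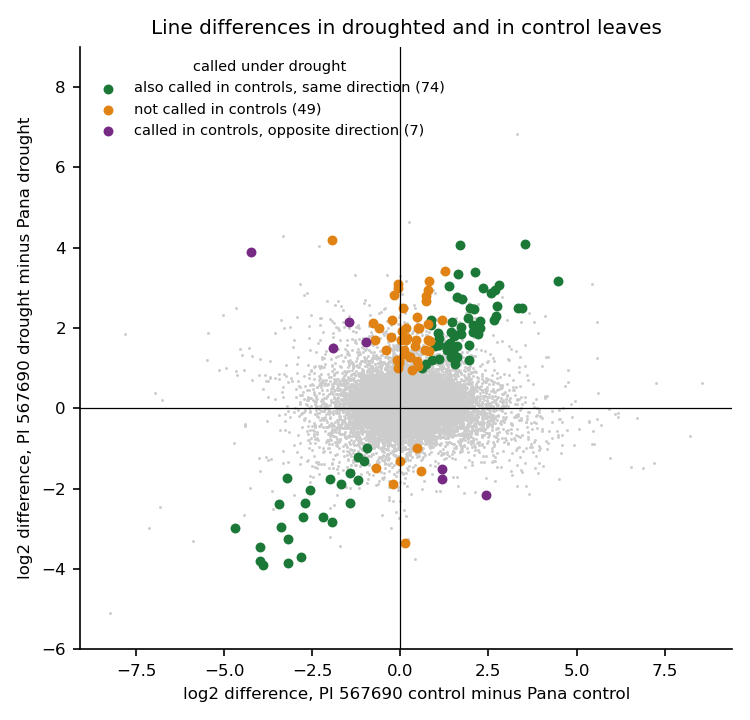
Log2 difference between the lines under drought (PI 567690 drought minus Pana drought, vertical) against that in controls (PI 567690 control minus Pana control, horizontal), 1 point per gene model tested. Coloured points passed under drought: 74 also passed in controls in the same direction, 49 did not pass in controls and 7 passed in the opposite direction.

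Most gene models that differed between the lines in well-watered leaves did not pass under drought. The 2507 gene models higher in PI 567690 controls had a median log2 difference of 1.38 in controls and of 0.07 under drought, close to the 0.08 of all gene models, and 51 of them (2.03%) passed in the same direction under drought, against 0.325% of all gene models tested. Their median level was 2.96, 3.76 and 3.74 FPKM in the PI 567690 drought libraries and 2.71, 3.10 and 4.11 FPKM in the Pana drought libraries, so the lines overlapped. In controls it was 6.41, 6.99 and 6.96 FPKM in PI 567690 and 1.06, 1.51 and 1.93 FPKM in Pana. The 740 gene models lower in PI 567690 controls had medians of -1.60 in controls and 0.11 under drought, and 23 (3.11%) passed in the same direction under drought, against 0.106% of all gene models tested. Their median level was 10.5, 8.55 and 9.02 FPKM in droughted PI 567690 and 8.56, 11.5 and 8.18 FPKM in droughted Pana. In controls it was 4.22, 3.24 and 2.97 FPKM in PI 567690 and 18.1, 14.3 and 17.4 FPKM in Pana.

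These medians under drought were also taken without the doubted Pana libraries. For gene models higher in PI 567690 controls the median was -0.02 without Pana library 1, 0.18 without Pana library 3 and 0.10 without both. For those lower in PI 567690 controls it was 0.04, 0.02 and -0.12 in the same order. All tested gene models had medians of 0.13, -0.002 and -0.001. Without both libraries, each set thus lay on its control side of all gene models, though far below its median difference in controls. The medians in controls come from the libraries that chose these gene models and are a description. Across all tested gene models Pearson's r between the line difference under drought and that in controls was -0.006, and Spearman's rho was -0.05. Genes are not independent replicates.

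Whether the line difference changed with treatment was tested as the difference of the 2 contrasts. It passed in 817 gene models (2.71%), 271 with a more positive and 546 with a more negative difference under drought. Leaving out 1 library gave 157, without PI 567690 control library 3, to 1207, without Pana control library 3. Without PI 567690 drought library 1 it was 432. It was 1079 without Pana drought library 1, 926 without Pana drought library 3, 391 without both and 1027 without Pana control library 1. Of the 130 gene models called under drought, 32 were among them. The 49 drought calls that did not pass in controls held 21 of the 32. In the other 28 neither the line difference in controls nor its change between treatments passed.

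Glyma13g10360, on chromosome 13, is one of those 21. It had 15.05, 18 and 19.7 FPKM in droughted PI 567690 and 2.102, 1.55 and 2.04 FPKM in droughted Pana, with little spread in either line (log2 difference 2.68 ± 0.22 SE, adjusted p = 0.000144). In controls it had 2.39, 3.18 and 3.29 FPKM in PI 567690 and 1.59, 0.906 and 1.72 FPKM in Pana (0.72 ± 0.22 SE, adjusted p = 0.0543). The difference between treatments was 1.95 ± 0.31 SE (adjusted p = 0.0115), and the drought call was made in all 21 alternatives.

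Glyma12g30750 and Glyma07g16130 were less stable. The first, on chromosome 12, had 21.8, 8.79 and 8.47 FPKM in droughted PI 567690 and 3.27, 0.417 and 0 FPKM in droughted Pana (2.82 ± 0.48 SE, adjusted p = 0.0271), and at most 0.384 FPKM in any control library. Glyma07g16130, on chromosome 7, had 1.55, 3.76 and 3.48 FPKM in droughted PI 567690 and 23.3, 38.2 and 60.3 FPKM in droughted Pana (-3.36 ± 0.56 SE, adjusted p = 0.0244). Its controls overlapped, at 76.9, 69.3 and 85.9 FPKM in PI 567690 and 182.8, 66.5 and 28.8 FPKM in Pana (0.12 ± 0.56 SE, adjusted p = 0.914). Both were named because they passed the limma test of the difference between treatments (2.997 and -3.48, adjusted p = 0.0429 and 0.0439). That pass is thus no separate support. Each lost its drought call in 15 of 21 alternatives, with adjusted p up to 0.345 and 0.202.

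In 7 gene models the lines differed past the threshold in both treatments but in opposite directions, and they are named after their values were seen. Glyma15g06816, on chromosome 15, had 43.2, 34.2 and 35.9 FPKM in droughted PI 567690 and 2.14, 2.07 and 0.826 FPKM in droughted Pana (log2 difference 3.89 ± 0.49 SE, adjusted p = 0.00371). Its controls had 1.12, 0.306 and 0.427 FPKM in PI 567690 and 16.4, 18.7 and 77.8 FPKM in Pana (-4.24 ± 0.49 SE, adjusted p = 0.000752). The droughted PI 567690 libraries lay within the range of the Pana controls, and 2 of the 3 droughted Pana libraries lay somewhat above the PI 567690 controls.

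Glyma12g04630, on chromosome 12, was higher in droughted PI 567690 with 19.5, 18.9 and 18.6 FPKM, against 5.66, 4.56 and 8.42 FPKM in droughted Pana (1.51 ± 0.22 SE, adjusted p = 0.011). In controls it had 17.2, 13.7 and 15.5 FPKM in PI 567690 and 66.1, 55.9 and 60.1 FPKM in Pana (-1.91 ± 0.22 SE, adjusted p = 0.000773). The 6 PI 567690 libraries spanned 13.7 to 19.5 FPKM, while the droughted and control Pana libraries lay far apart. Glyma12g01690, on the same chromosome, had 237.6, 207 and 208.5 FPKM in droughted PI 567690 and 56.2, 85.8 and 68.0 FPKM in droughted Pana (1.64 ± 0.27 SE, adjusted p = 0.0223). Its controls had 53.2, 55.8 and 50.7 FPKM in PI 567690 and 73.3, 128 and 122 FPKM in Pana (-0.97 ± 0.27 SE, adjusted p = 0.0429). Glyma19g31590, on chromosome 19, had 10.04, 27.7 and 25.7 FPKM in droughted PI 567690 and 2.25, 3.83 and 5.16 FPKM in droughted Pana, and in controls 3.33 to 5.20 FPKM in PI 567690 and 11.7 to 14.8 FPKM in Pana.

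**Figure D5:**
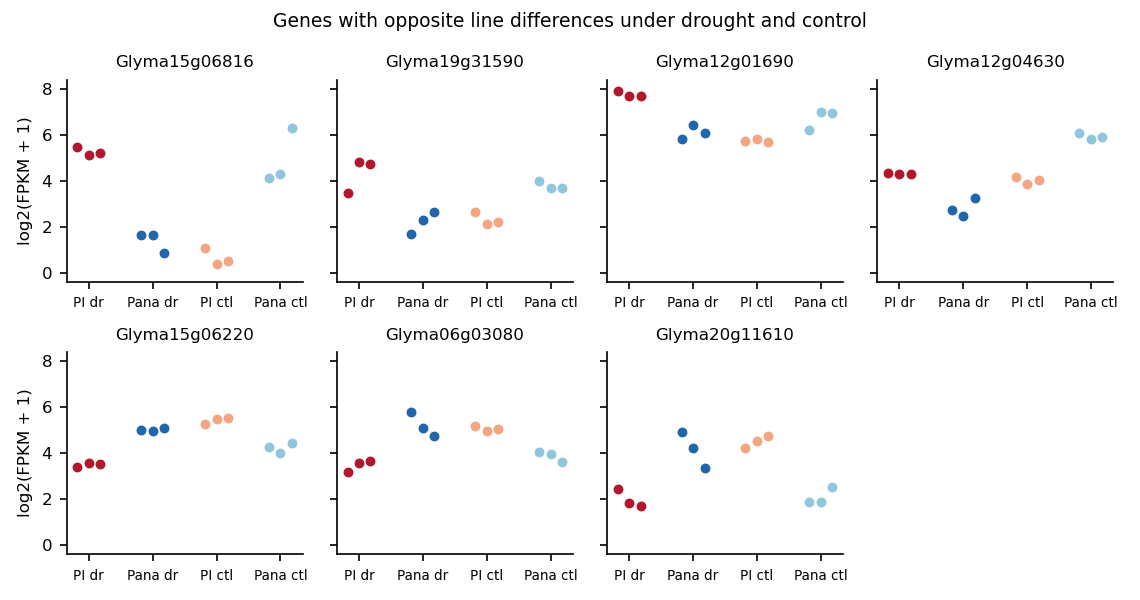
Levels on log2(FPKM + 1) in every library of the 7 gene models whose line difference had opposite signs under drought and in controls; dr is drought, ctl is control, PI is PI 567690, and the 3 points of a group are libraries 1, 2 and 3 from left to right. The upper row is higher in PI 567690 under drought and lower in controls, and the lower row is the reverse.

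The other 3 were lower in PI 567690 under drought and higher in controls. Glyma15g06220, on chromosome 15, had 9.45, 10.8 and 10.7 FPKM in droughted PI 567690 and 30.9, 30.4 and 32.7 FPKM in droughted Pana (log2 difference -1.52 ± 0.19 SE, adjusted p = 0.00371). Its controls had 37.1, 44.0 and 44.9 FPKM in PI 567690 and 18.1, 15.2 and 20.6 FPKM in Pana (1.18 ± 0.19 SE, adjusted p = 0.00359). No group overlapped with another among the 4. On chromosome 6, Glyma06g03080 had 7.91, 11.02 and 11.5 FPKM in droughted PI 567690 and 54.8, 33.0 and 26.2 FPKM in droughted Pana, and in controls 30.1 to 35.0 FPKM in PI 567690 and 11.4 to 15.5 FPKM in Pana. Glyma20g11610, on chromosome 20, had 4.43, 2.50 and 2.25 FPKM in droughted PI 567690 and 29.5, 17.4 and 9.10 FPKM in droughted Pana, and in controls 17.9 to 25.6 FPKM in PI 567690 and 2.59 to 4.73 FPKM in Pana.

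All 7 passed the test of the difference between treatments (limma, adjusted p from 0.00184 to 0.00966). They were chosen by opposite calls in the same fit, so passing this test largely followed from the choice and adds no support. The same holds in the settings that follow, which reuse the libraries that chose them. Without Pana drought library 3 all 7 were called in both directions again. Without Pana drought library 1 it was 4 of them, and without both 1, Glyma12g04630, while the test of the difference passed for all 7 there too (adjusted p from 0.00342 to 0.0423). Without PI 567690 drought library 1 it was 5 of the 7, and without PI 567690 drought library 2 or 3 it was 2 of the 7.

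A count free of the shared spread was taken from the gaps between the groups. The lowest library of one line exceeded the highest of the other at least 2-fold on FPKM + 1 in 152 gene models, 107 higher and 45 lower in PI 567690, and 70 and 25 of these were among the 130 calls. Without Pana library 1 it was 292, without Pana library 2 it was 324, without Pana library 3 it was 285 (149 higher, 136 lower), without both 1 and 3 it was 622, and without PI 567690 library 1 it was 353. Fewer libraries by construction give more gaps. A smaller gap, with no overlap of any size, was found in 3372 higher (11.2%) and 936 lower (3.1%) gene models.

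Gene models present in one line and nearly absent in the other were few. Under drought 11 had at least 1 FPKM in all 3 PI 567690 libraries and at most 0.1 FPKM in all 3 Pana libraries, and 9 had the reverse. All 11 in PI 567690 were among the calls, with mean levels of 1.37 to 8.63 FPKM, against 3 of the 9 in Pana. The limits were applied to the same drought libraries that made the calls. These gene models also passed the filter only through the line that has them. Their share among the calls is thus a description and no separate support. Without Pana library 1 the 20 became 43, without Pana library 2 they became 34 and without Pana libraries 1 and 3 they became 82. Without PI 567690 library 1 they became 27, with 11 present in PI 567690 and 16 in Pana. In the controls 4 of the 11 met the same limits, for which no share of all gene models tested is given here. In 9 of the 11 the controls had no overlap in the same direction, as had 26.1% of all gene models tested. Without Pana library 1 these counts were 12 and 27 of 34, without Pana library 3 they were 7 and 13 of 17, and without both they were 24 and 49 of 73. None met the level set for named gene models. Those of the 11 that met the limits in controls, named after their values were seen, were Glyma14g34190, Glyma20g03650, Glyma13g03534 and Glyma03g15085. Glyma14g34190 had 4.56, 11.96 and 9.37 FPKM in droughted PI 567690 and 18.4 to 24.1 FPKM in its controls and was listed at 0 in all 6 Pana libraries. Glyma20g03650 was also listed at 0 in every Pana library and had 4.56, 9.78 and 8.43 FPKM in droughted PI 567690 and 1.20 to 2.21 FPKM in its controls. The neighbouring Glyma03g08916 and Glyma03g08923 were present in droughted PI 567690 alone of the 4 groups. Glyma03g08923 had 3.42, 5.16 and 5.62 FPKM there, was listed at 0 in all Pana libraries and had at most 0.184 FPKM in PI 567690 controls (adjusted p of the change between treatments 0.00293).

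Among the 9 gene models present in droughted Pana, Glyma09g16100 alone met the same limits in controls: it was listed at 0 in all 6 PI 567690 libraries and had 2.63, 5.83 and 4.61 FPKM in droughted Pana and 4.68 to 7.20 FPKM in Pana controls. Glyma13g33180 had the highest mean of the 9, with 36.3, 11.9 and 4.08 FPKM in droughted Pana, and vanishing values in droughted PI 567690, the largest 0.000169 FPKM. In controls it reached 28.5 FPKM in PI 567690 library 2 and 11.2 FPKM in Pana library 3 and was close to 0 in the other 4, and its drought difference did not pass (adjusted p = 0.463). Values that small lie far below what 1 whole read is worth. An exact 0 in such a table can be a failed estimate. Differences against it, where given, are on log2(FPKM + 1), and no ratio of FPKM is given against it.

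The called gene models were spread over all 20 chromosomes. By the chromosome number in the identifiers, chromosome 3 held 14 of its 1356 tested gene models (1.03%) and chromosome 15 held 12 of 1432 (0.838%), against 0.431% overall. The lowest shares were on chromosomes 16 (2 of 1065) and 17 (3 of 1515). On chromosome 3, 12 were higher and 2 lower in PI 567690, and 9 of the 14 also passed in controls in the same direction. Tested gene models next to each other by identifier were both called in 1 direction in 10 pairs, 8 higher and 2 lower, with no longer run, and 3 of these pairs were on chromosome 3. Without Pana library 1, chromosome 3 held 21 calls, chromosome 15 held 6 and there were 13 pairs. Without Pana library 3 the counts were 13, 12 and 9, and without both they were 11, 7 and 8. How the authors counted reads, and with which strand setting, is not stated in the labels. Neighbouring or near-identical copies, which are common in the soybean genome, could therefore share reads.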

How the data were processed

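Values were used as the authors deposited them, in 1 table of 12 libraries, read as FPKM: the table names no unit, and its values are not whole, have column totals that differ and step by an amount that depends on the gene. Cufflinks, Cuffdiff, FastQC and TopHat 1.4.1 appear in the submitters' processing notes, which give neither roles nor order. For the genome build and the annotation, the answer is not given in the sources used here. FPKM is relative: a gain of reads by abundant genes lowers the others. The absolute depth is not known.

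Column names placed each library by line and treatment. The main test was limma 3.58.1 in R 4.3.3 on log2(FPKM + 1), which understates changes of low genes. It used a trend on mean expression, 1 coefficient per group, all 12 libraries (8 residual and 3.4 prior degrees of freedom) and Benjamini-Hochberg adjustment over 30178 gene models at 0.05. All adjusted p-values are limma's. The fit was tested on simulated data. Named gene models were called, did not overlap and had a mean above the median. They were the 2 highest and 2 lowest log2 differences in each of 3 sets, leaving out gene models already named: all drought calls, those also called in the same direction in controls (ranked by the smaller difference), and those not called in controls but called in the difference of differences, where 1 lower one met the rule. Members and lists were chosen with earlier results of these data known. Plots were drawn with matplotlib 3.10.9 in Python 3.11.15.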

Additional observations from a re-analysis of the deposited data

Results flagged for a closer look

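The line difference changed between drought and control past the threshold in 817 gene models. Among the named gene models, the change (drought minus control, log2) was 6.13 in Glyma15g06780, 2.38 in Glyma08g19390, 2.997 in Glyma12g30750, 1.95 in Glyma13g10360 and -3.48 in Glyma07g16130. Each was singled out by the test of the difference of the 2 line contrasts. Groups of 3 libraries are too small for a test of single outlying libraries.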

How the results depend on the processing

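The 130 calls became 28 at a mean of at least 5 FPKM, 84 with a pseudocount of 0.1, 68 at an adjusted p under 0.01, 68 when the nearly alike PI 567690 drought libraries 2 and 3 were averaged, and 44 with the 6 drought libraries alone. With a pseudocount of 0.1, 51 were higher and 33 lower in PI 567690, in place of 98 and 32. At a mean of at least 5 FPKM 17 were higher and 11 lower. The excess of higher calls was thus smaller in both settings. In the main setting 60.8% of all tested gene models had a positive drought difference. Leaving out 1 library gave 60 to 203. The 74 calls in both treatments became 18 at a mean of at least 5 FPKM, 47 at an adjusted p under 0.01 and 34 with separate fits, and 45 to 106 without 1 library. The 152 gene models at least 2-fold apart became 35 at 4-fold, 622 without Pana drought libraries 1 and 3 (chosen after seeing the data) and 166 to 353 without 1 library. The 20 present in one line only became 0 with 5 FPKM as the level of presence, 82 without Pana drought libraries 1 and 3 and 21 to 43 without 1 library. Where a stricter limit or fewer libraries did not by construction set the count, the cause was not tested.

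With libraries scaled by median ratios, the median log2 difference of all gene models was -0.01 in place of 0.08, and there were 111 calls, 66.7% of them higher in PI 567690 in place of 75.4%; 102 of the 130 passed in the same direction. With no filter on low values there were 170 calls. The named gene models passed in 179 of 231 combinations of gene and alternative, failed in 52 and reversed in 0. They were chosen without overlap between the lines, so leaving out libraries could not reverse them. Other alternatives, such as a stricter threshold, leave the log2 difference as it was. The lack of reversals was thus largely set in advance. A replicate block gave 115 calls in the drought contrast and 69 in both treatments. The block has no basis in the labels: deviations of same-numbered drought libraries correlated at 0.67, -0.11 and 0.63 and those of control libraries at 0.02, 0.02 and 0.11, and by these deviations 4 of the 6 drought libraries had, among the drought libraries of the other line, their own number as the best match. Library weights by limma stopped before convergence, so no value is given. The lone Pana drought library left without libraries 1 and 3 was assumed to vary like the other groups. Unknown absolute depth and FPKM values without counts limit what can be said of gene models near 0.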
